A study of Mus musculus with 23 samples.

Results

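The cyclins, cell cycle kinases and replication genes are 73 genes, of 8251 with a probe set of their own on the array, taken by gene symbol alone. They were measured by 96 of 12422 non-control probe sets. The rule took every platform annotation symbol beginning with Ccna to Ccnh, with Cdc, or with Cdk or Mcm followed by a digit, together with a short list of proliferation genes such as Mki67 and Top2a, and left out Ccnd2. Hippocampal RNA of 23 male mice of the strain C57BL/6JNIA was hybridised, 1 array per mouse, for 14 animals of 15 months and 9 of 2 months. Every animal, young or old, first went through spatial learning in the Morris water maze, so no untrained group is compared. The comparison here asks how these genes differ with age. Differences are given as 15-month minus 2-month on the log2(signal + 16) scale, which understates the change of dim genes, and signals are linear MAS5 values, given as mean ± SD over 14 and 9 mice. Fewer cells of a type and less RNA per cell cannot be told apart in such tissue.

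Cyclins bind and switch on cyclin-dependent kinases, which drive a cell through the phases of division. Before DNA is copied, the MCM helicase is loaded onto replication origins, and the sliding clamp PCNA later holds the DNA polymerases on the template. In the adult hippocampus most cells are neurons that have left the cycle, and division continues in progenitors of the dentate gyrus, in glial progenitors and in vascular and immune cells. Several names in the set belong to genes of other work, such as Cdk5 of neurons, Cdk9 of transcription and Cdc42 of the cytoskeleton.

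E2F transcription factors act on many replication genes through a short promoter element. Its letters TTTCCCGC, TTTGGCGC, TTTCGCGC and TTTGCCGC were searched on both strands of 72 member promoters of RefSeq (GRCm38.p6), each 250 bases before to 50 after a gene start, and were present in 9, or 12.5%, against 2.26% of all 32851 promoters. Matches on the opposite strands can overlap each other. The windows below are those of the origin licensing genes, shown because 4 of the helicase subunits carry the element and are described with their values further on. Each is read 5′ to 3′ on the gene's strand, with the match in capitals and 10 flanking bases on each side. Further matches in the promoters of Mcm3, Mcm5, Mcm6 and Mcm7 are not shown.
Mcm3, chr1:20820276-20820303, minus strand: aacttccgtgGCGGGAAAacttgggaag
Mcm5, chr8:75109346-75109373, plus strand: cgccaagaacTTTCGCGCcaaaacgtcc
Mcm6, chr1:128359735-128359762, minus strand: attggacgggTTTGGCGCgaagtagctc
Mcm7, chr5:138172031-138172058, minus strand: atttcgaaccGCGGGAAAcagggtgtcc
Cdc6, chr11:98908003-98908030, plus strand: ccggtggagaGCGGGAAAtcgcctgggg
A match is a description of letters, not a measured binding site.

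Array medians ran from 155 to 188. The array that differed from the rest was that of 15-month replicate 13, whose 25th percentile was 53.6 while all others had 30.3 to 41.9. This mouse was the highest of its age in 11 and the lowest in 13 of the 56 members tested, and no member passed without it. Leaving it out moved the log2 difference of 15 of the 56 by over 1.5 times or turned its sign.

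No member passed the test between the ages at a false discovery rate of 0.05. Of the 96 probe sets 56, standing for 49 genes, were bright enough to be tested, with a mean log2 value above that of a signal of 91.7. In the limma test none of the 56 was called, against 28 of all 7453 probe sets tested, or 0.376%. None was called higher, against 0.335% of all, and none lower, against 0.0403% of all. At an unadjusted p under 0.05 there were 8 members, 1 higher and 7 lower, together 14.3% of the members against 12.4% of all probe sets tested. By direction these were 1.79% higher against 5.89% of all, and 12.5% lower against 6.51% of all. The 8 were Pcna above 0 and Cdk18, Ccng2, Cdk4, Cdc42ep4, Cdc23, Mcm5 and the dimmer probe set of Cdc5l below 0. The median log2 difference was -0.05 for the members and -0.02 for all probe sets tested, and 35 of 56 members, or 62.5%, lay below 0 against 55% of all. No member had ages that did not overlap, which held for 0.0537% of all probe sets tested.

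**Figure D1:**
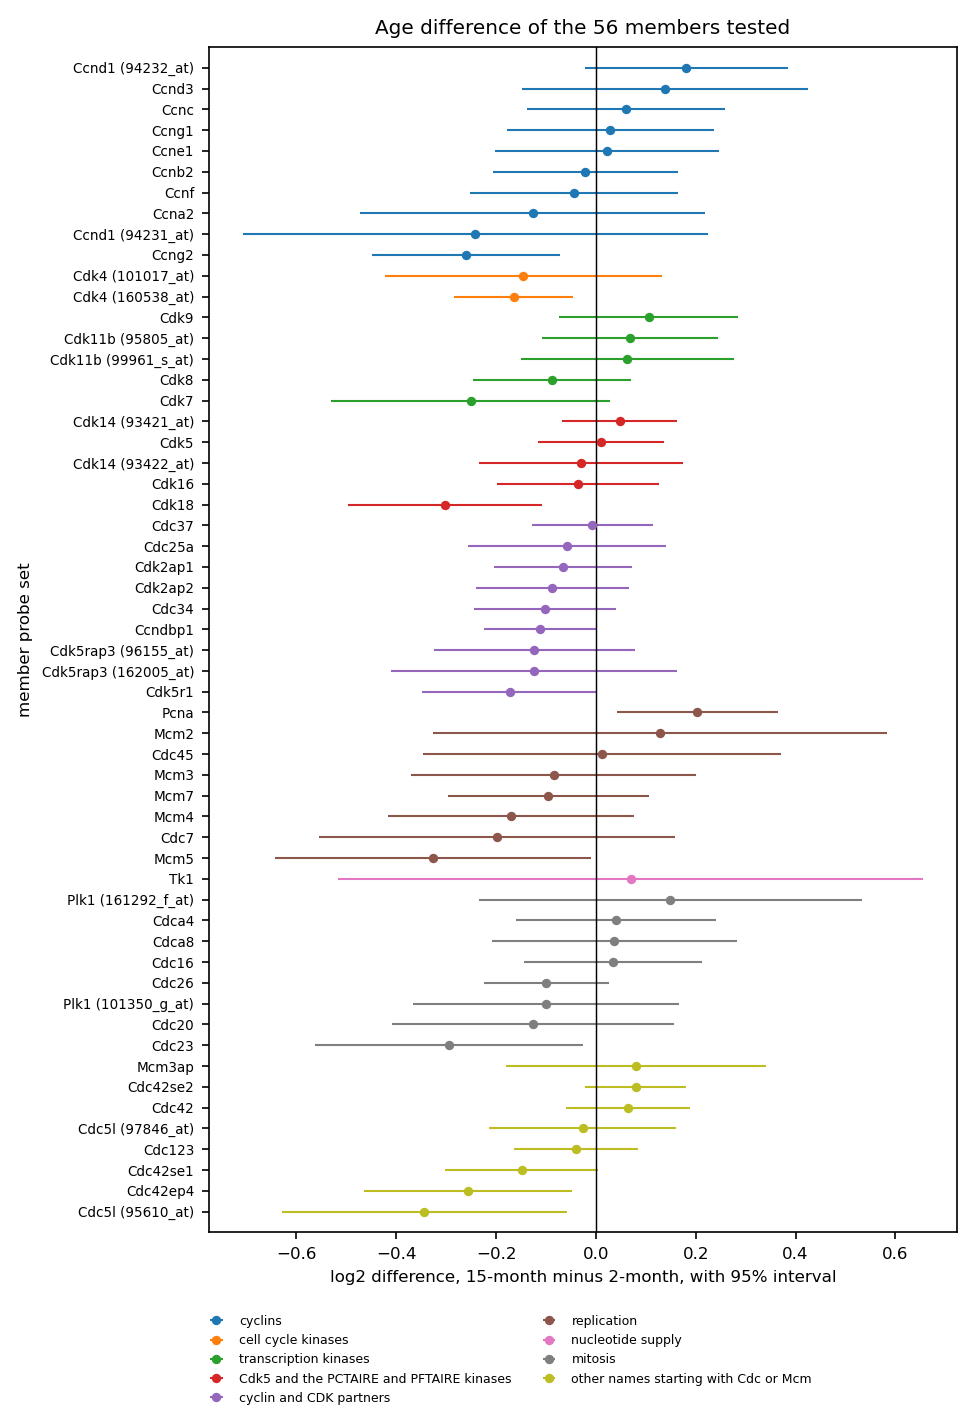
Log2 difference, 15-month minus 2-month, of the 56 member probe sets tested, on the horizontal axis, by role; points are limma estimates and bars their 95% intervals. The estimates run from -0.34 for a probe set of Cdc5l to 0.20 for Pcna, and most of the intervals include 0.

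The precision of these estimates sets what could have been seen. For a member the 95% interval reached 0.20 on either side of the estimate in the median, the same as for all probe sets tested. The whole interval lay within 0.5 of 0 for 47 of the 56. The 9 others could have differed by more, among them Tk1, Mcm2, Mcm5 and Cdc7. The median member had a log2 SD between mice of 0.23 in the older and 0.21 in the younger group, as had the median of all probe sets (0.23 and 0.21).

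**Figure D2:**
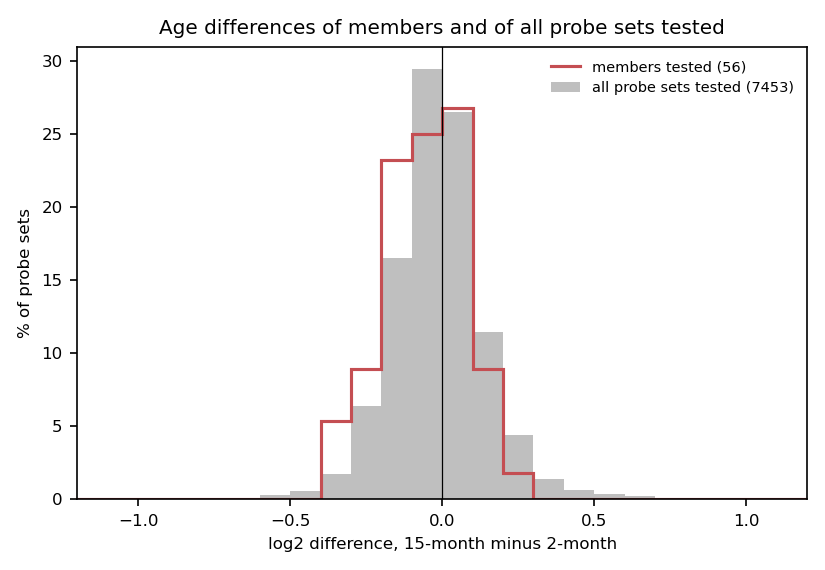
Percentage of probe sets by log2 difference, 15-month minus 2-month, in steps of 0.1, for the 56 members tested (line) and all 7453 probe sets tested (grey; a few lie beyond the axis). Both distributions centre near 0, with medians of -0.05 and -0.02, and no member lies beyond 0.4 on either side.

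Among the cyclins, 10 probe sets of 9 genes were tested, 5 above and 5 below 0 with a median difference of 0.00. Ccng2 encodes cyclin G2, an atypical cyclin that is abundant in cells that have stopped dividing. It had signals of 674.7 to 1194.5 with a median of 1048.7 at 15 months and of 1054.2 to 1206.8 with a median of 1183.9 at 2 months. The young mice lay close together, and 7 of the 14 older mice were below all of them while the others overlapped. The log2 difference of Ccng2 was -0.26 ± 0.09 (SE; 95% interval -0.45 to -0.07; adjusted p = 0.240), and 2 of 14 older mice were above the 2-month mean. Its log2 SD was 0.28 in the older group and 0.07 in the younger.

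The D-type cyclins, which activate Cdk4 and its relatives early in the cycle, were measured by Ccnd1 and Ccnd3. Ccnd1 had signals of 573.9 to 1110.6 with a median of 756 at 15 months and of 489.5 to 804.5 with a median of 656.1 at 2 months in its brighter probe set. The ages overlapped, and 11 of 14 older mice were above the young mean. Its log2 difference was 0.18 ± 0.10 (SE; 95% interval -0.02 to 0.38; adjusted p = 0.462). A dimmer probe set of Ccnd1 pointed the other way, at 144 ± 58.0 in the older and 167 ± 58.9 in the younger mice, with a difference of -0.24 ± 0.23 (adjusted p = 0.701). The mean of both probe sets gave -0.03, so no direction is given for this gene. Ccnd3 had signals of 192.1 to 618.9 with a median of 532.6 at 15 months and of 321.9 to 577 with a median of 439.2 at 2 months. The lowest value of Ccnd3 belonged to 15-month replicate 13, and the difference was 0.14 ± 0.14 (adjusted p = 0.721) with that mouse and 0.24 ± 0.09 (adjusted p = 0.247) without it.

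None of the other cyclins tested passed, and their estimates ran from -0.13 to 0.06. Ccne1, cyclin E1 of the entry into DNA synthesis, was at 645 ± 104 in the older and 637 ± 132 in the younger mice, a difference of 0.02 ± 0.11 (adjusted p = 0.948). Ccna2, the cyclin A of DNA synthesis and entry into mitosis, was at 219.8 ± 52.6 in the older and 243 ± 76.2 in the younger mice (-0.13 ± 0.17; adjusted p = 0.799). Its lowest older mouse was 15-month replicate 13, at 76.0 against 187.0 to 306.5 in the others, and without it the difference was -0.03 ± 0.13. Ccnb2, a mitotic cyclin B, was at 302 ± 56.2 in the older and 305 ± 35.3 in the younger mice (-0.02 ± 0.09; adjusted p = 0.941). Ccng1, cyclin G1 and a target of p53, was at 306 ± 60.7 in the older and 297 ± 42.0 in the younger mice (0.03 ± 0.10; adjusted p = 0.924). The signs of Ccne1, Ccnb2 and Ccng1 changed when single mice were left out and, for Ccne1 and Ccnb2, also with the 25th-percentile covariate. Ccnc, which pairs with Cdk8, and Ccnf, a subunit of a ubiquitin ligase, had differences of 0.06 and -0.04. Without 15-month replicate 13 the differences were -0.07 ± 0.08 for Ccnb2, 0.08 ± 0.09 for Ccne1 and 0.01 ± 0.10 for Ccng1. The probe sets of Ccna1 and Ccne2 were too dim to test.

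Of the cell cycle kinases Cdk1, Cdk2 and Cdk4 only Cdk4 was bright enough to be tested. Cdk4, the partner of the D-type cyclins, had signals of 876 to 1166.4 with a median of 1067.4 at 15 months and of 1046.4 to 1290 with a median of 1128.3 at 2 months. The ages overlapped between 1046.4 and 1166.4, and 6 of the 14 older mice were below every young one. Its log2 difference was -0.16 ± 0.06 (SE; 95% interval -0.28 to -0.05; adjusted p = 0.242), with 1 of 14 older mice above the young mean. A second, dimmer probe set of Cdk4 had a difference of -0.15 ± 0.14 (adjusted p = 0.698). Cdk1, the kinase of mitosis, had a signal of 12.7 ± 7.37 at 15 months and 14.0 ± 3.46 at 2 months, with single mice between 6.2 and 32.4. Cdk2, the kinase of DNA synthesis, was at 70.4 ± 18.9 in the older and 62.9 ± 11.1 in the younger mice, also under the level for testing. The highest older mouse for both Cdk1 (32.4) and Cdk2 (98.6) was 15-month replicate 13.

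The kinases of transcription were tested with 5 probe sets, 3 above and 2 below 0. Cdk9, the kinase that releases paused RNA polymerase II, was at 1589 ± 235 in the older and 1474 ± 218 in the younger mice and had a difference of 0.11 ± 0.09 (adjusted p = 0.654). Cdk7, which activates other CDKs and is a subunit of the transcription factor TFIIH, was at 137 ± 32.8 in the older and 166 ± 38.8 in the younger mice and had one of -0.25 ± 0.14 (adjusted p = 0.460). Cdk8 of the Mediator complex was at -0.09, and both probe sets of Cdk11b, which acts in transcription and splicing, were at 0.07 and 0.06.

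Cdk5 and the related PCTAIRE and PFTAIRE kinases were tested with 5 probe sets, 2 above and 3 below 0. Cdk5, a kinase of neurons that have left the cycle, which p35 rather than a cyclin activates, had signals of 1909.7 to 3101.9 with a median of 2421.25 at 15 months and of 2190.2 to 2668.6 with a median of 2377.7 at 2 months. The young values lay within the older ones, and the log2 difference was 0.01 ± 0.06 (SE; 95% interval -0.12 to 0.14; adjusted p = 0.958), so that a change of more than 0.14 in either direction lay outside the interval. The sign of this estimate turned with quantile normalization, without the 4 arrays of lowest 99th percentile and when some single mice were left out. Cdk5r1, which encodes p35, had signals of 276.2 to 440.2 with a median of 366.25 at 15 months and of 337.9 to 504 with a median of 415.5 at 2 months, overlapping over most of their range. The difference of Cdk5r1 was -0.17 ± 0.09 (SE; 95% interval -0.35 to 0.00; adjusted p = 0.412), with 2 of 14 older mice above the young mean. No relation of Cdk5 and Cdk5r1 across mice passed the test within an age. Pearson's r was -0.04 and Spearman's rank correlation -0.03 over 14 mice (adjusted p = 0.959 and 0.981, permutation test) and 0.21 and 0.10 over 9 mice (adjusted p = 0.903 and 0.934, permutation test). Without the 2 mice farthest from the median of Cdk5, r was -0.20 and -0.07.

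Cdk18, a PCTAIRE kinase named for a motif in its cyclin-binding helix, had the lowest p of all members. It had signals of 340 to 611 with a median of 450.45 at 15 months and of 455.9 to 705.5 with a median of 499.7 at 2 months. The highest older mouse was inside the young range, while 9 of 14 were below the lowest young mouse. The log2 difference of Cdk18 was -0.30 ± 0.09 (SE; 95% interval -0.50 to -0.11; adjusted p = 0.174), with 1 of 14 older mice above the young mean. That exception was 15-month replicate 13, and without it the difference was -0.34 ± 0.09 (adjusted p = 0.0988). Cdk16, another PCTAIRE kinase, was at 1358 ± 113 in the older and 1409 ± 243 in the younger mice (-0.04 ± 0.08; adjusted p = 0.877). Cdk14, a PFTAIRE kinase, was at 2155 ± 179 in the older and 2083 ± 177 in the younger mice (0.05 ± 0.06; adjusted p = 0.769), and a dimmer probe set had a difference of -0.03.

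Of the partners and regulators of cyclins and CDKs, 9 probe sets of 8 genes were tested, all 9 with estimates below 0 where 55% of all probe sets were, with a median of -0.10 and none past the test. In the fit of all probe sets 3 of the 6 dimmer ones lay above 0. The lowest adjusted p was that of Ccndbp1, a protein that binds cyclin D1, at 1677 ± 148 in the older and 1811 ± 122 in the younger mice (-0.11 ± 0.05; adjusted p = 0.405). Cdc34, the ubiquitin-conjugating enzyme of SCF ligases, had -0.10 ± 0.07 (adjusted p = 0.551), and Cdc25a, a phosphatase that activates CDKs, had -0.06 ± 0.10 (adjusted p = 0.841). Cdc37, the chaperone partner that delivers kinases to Hsp90, was at 1673 ± 136 in the older and 1684 ± 172 in the younger mice, a difference of -0.01 whose sign changed when some single mice were left out. Cdk2ap1, Cdk2ap2 and both probe sets of Cdk5rap3 lay between -0.12 and -0.07, and without 15-month replicate 13 the differences were -0.01 ± 0.06 for Cdc37, -0.04 ± 0.06 for Cdk2ap1 and -0.04 ± 0.11 for 1 of those of Cdk5rap3.

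**Figure D3:**
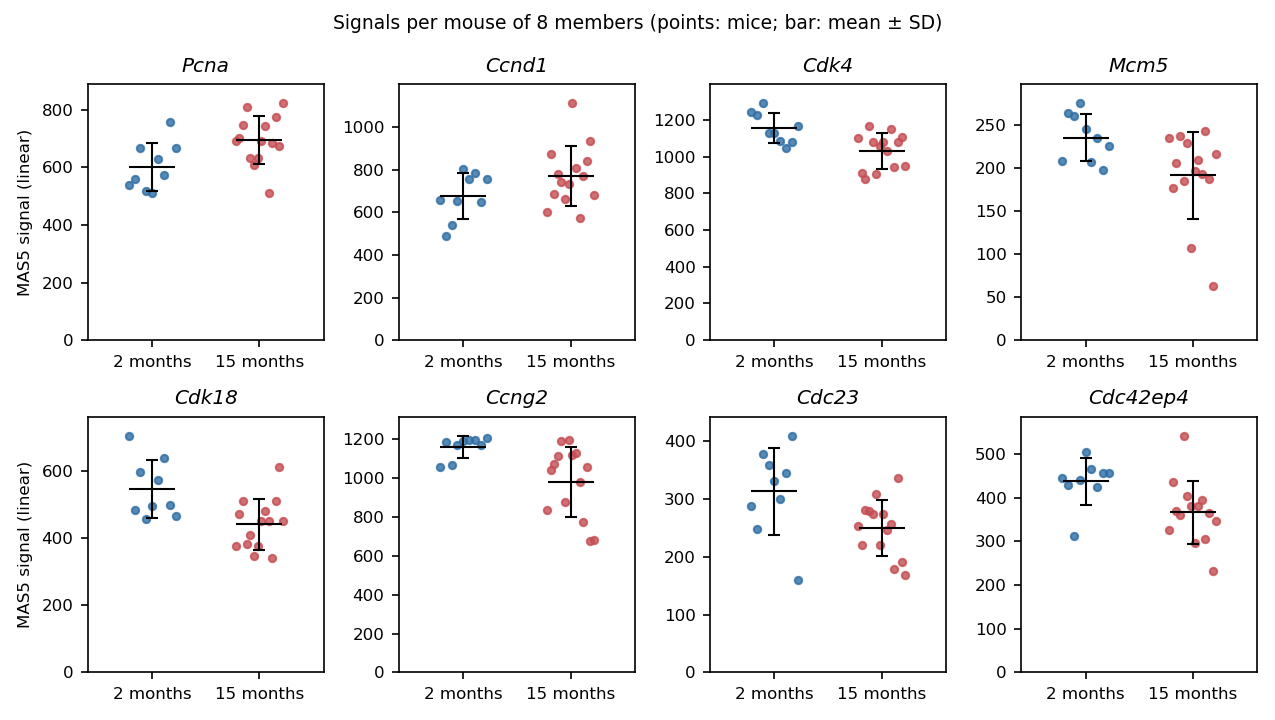
MAS5 signal (linear axis from 0) of 8 members in each mouse, 2 months at the left and 15 months at the right of each panel; points are mice, the bar is the mean and the whiskers the SD. The ages overlap in every panel. Pcna runs from 509.3 to 821.9 at 15 months and from 510.5 to 757.6 at 2 months, and Ccng2 is wider at 15 months than at 2.

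Replication genes differed in sign, 3 of 8 tested probe sets above and 5 below 0. Pcna had signals of 509.3 to 821.9 with a median of 692.2 at 15 months and of 510.5 to 757.6 with a median of 572.7 at 2 months. The ages shared most of their range, with 3 of 14 older mice above the highest young one and 1, 15-month replicate 10, below the lowest. Its log2 difference was 0.20 ± 0.08 (SE; 95% interval 0.04 to 0.36; adjusted p = 0.283), with 13 of 14 older mice above the young mean. It was the highest estimate among the 56 tested probe sets. In the fit of all probe sets 6 dim ones lay higher, none past the test.

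The MCM genes encode subunits of 1 helicase, and 5 of them were tested. Mcm5 had signals of 62.5 to 242.8 with a median of 200.55 at 15 months and of 197.7 to 274.5 with a median of 234.4 at 2 months. Of the 14 older mice 7 were below every young one, and the lowest, at 62.5 and 106.6, were 15-month replicates 13 and 7. The difference of Mcm5 was -0.33 ± 0.15 (SE; 95% interval -0.64 to -0.01; adjusted p = 0.384), and -0.22 ± 0.11 (adjusted p = 0.374) without 15-month replicate 13. A dimmer Mcm5 probe set, of a type whose probes can be less specific, was too dim to test and higher on average at 15 months, at 86.8 ± 61.3 in the older and 65.8 ± 25.3 in the younger mice. Mcm4 was at 131 ± 25.3 in the older and 149 ± 25.9 in the younger mice (-0.17 ± 0.12; adjusted p = 0.585). Mcm7 was at 177 ± 30.7 in the older and 189 ± 26.3 in the younger mice (-0.10 ± 0.10; adjusted p = 0.728). Mcm3, whose probe set may also detect similar transcripts, was at 164 ± 45.3 in the older and 172 ± 37.1 in the younger mice (-0.08 ± 0.14; adjusted p = 0.837). Mcm2 had signals of 66.4 to 245.4 with a median of 159.7 at 15 months and of 29.5 to 210.8 with a median of 181.7 at 2 months. The lowest young value of Mcm2 came from 2-month replicate 3, and the difference was 0.13 ± 0.22 (adjusted p = 0.842) with that mouse and -0.10 ± 0.16 (adjusted p = 0.857) without it. Without 15-month replicate 13 the differences were 0.21 ± 0.21 for Mcm2 and -0.14 ± 0.13 for Mcm3. Mcm6 and Cdc6, whose windows are shown above, were too dim to test, and whether the element goes with the age difference was not tested.

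No pair of helicase subunits was related across mice past the test. Over the 10 pairs of the 5 tested MCM genes Pearson's r within an age ran from -0.46 to 0.73 at 15 months, with 2 of 10 above 0, and from -0.67 to 0.48 at 2 months, with 4 of 10 above 0. No pair passed after adjustment over 30 relations, which were 15 gene pairs within each age. The highest r was that of Mcm2 and Mcm5 over 14 mice of 15 months, at 0.73 (adjusted p = 0.323, permutation test), with a Spearman rank correlation of 0.53 (adjusted p = 0.414), and r was 0.22 without the 2 mice farthest from the median of Mcm2. Mcm4 and Mcm5 at 15 months had an r of -0.39 (adjusted p = 0.491) and a Spearman rank correlation of -0.75 (adjusted p = 0.0690, permutation test), with an r of -0.45 without such mice. The points of each age share the scaling and the tissue dissected.

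Other replication and nucleotide genes were imprecise. Cdc7, the kinase that fires licensed origins, was at 126 ± 45.9 in the older and 140.3 ± 25.2 in the younger mice (-0.20 ± 0.17; adjusted p = 0.675). Cdc45, which joins the MCM ring in the active helicase, was at 104 ± 29.1 in the older and 105 ± 36.7 in the younger mice (0.01 ± 0.17; adjusted p = 0.984). Tk1, the thymidine kinase of dividing cells, had signals of 32 to 242.3 with a median of 111.4 at 15 months and of 40.3 to 275.7 with a median of 94.9 at 2 months. Mice of both ages spread over this range, and the interval of the difference ran from -0.52 to 0.66 around an estimate of 0.07 (adjusted p = 0.938). Without 15-month replicate 13 the differences were -0.13 ± 0.16 for Cdc7 and 0.09 ± 0.15 for Cdc45. Cdc45 and Tk1 were the tested members nearest to the level for testing, and Cdca7l and Mki67 lay just under it.

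Genes of mitosis were tested with 8 probe sets, 4 above and 4 below 0. Cdc23, a subunit of the anaphase-promoting complex, which marks mitotic proteins for destruction, had signals of 168.6 to 336.6 with a median of 254.6 at 15 months and of 160.4 to 409.8 with a median of 330.6 at 2 months. All older mice were within the young range, which 2-month replicate 9 opened at its lower end. The difference of Cdc23 was -0.29 ± 0.13 (SE; 95% interval -0.56 to -0.03; adjusted p = 0.359) in the limma test. Without 2-month replicate 9 it was -0.40 (adjusted p = 0.130), the lowest adjusted p of the members in that setting. Cdc16 and Cdc26, subunits of the same complex, had differences of 0.03 ± 0.09 (adjusted p = 0.892) and -0.10 ± 0.06 (adjusted p = 0.515), and that of Cdc16 was -0.01 ± 0.07 without 15-month replicate 13. Cdc20, its activator in mitosis, was at 133 ± 40.1 in the older and 143 ± 26.3 in the younger mice (-0.13 ± 0.14; adjusted p = 0.747). Plk1, a kinase of mitotic entry and spindle assembly, had a brighter probe set at 406 ± 100.5 in the older and 379 ± 122 in the younger mice (0.15 ± 0.19; adjusted p = 0.786) and a dimmer one at -0.10 ± 0.13 (adjusted p = 0.791). Both Plk1 probe sets may also detect similar transcripts, and they differed in sign. The lowest young value of the brighter one was 110.7, in 2-month replicate 7, with 319.1 in the next young mouse. Without that mouse its difference was -0.04. It was -0.11 without the 4 arrays of lowest 99th percentile, which include that of 2-month replicate 7. Cdca4 and Cdca8, which encodes borealin of the chromosomal passenger complex, were at 0.04 and 0.04.

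Mki67 and Top2a, often read as marks of dividing cells, were under the level for testing, as were 40 probe sets in all, and 24 genes had no tested probe set. Mki67, the Ki-67 protein of cycling cells, had signals of 85.9 ± 48.7 at 15 months and 105 ± 32.2 at 2 months, with single mice between 48.8 and 236.5, in a probe set whose probes can be less specific. The 236.5 was that of 15-month replicate 13, with 121.4 in the next older mouse. Medians of this probe set were 75.35 at 15 months and 108.8 at 2 months. The other probe set of Mki67 was at 5.47 ± 5.01 in the older and 5.26 ± 3.15 in the younger mice. Top2a, the topoisomerase of chromosome separation, was at 7.44 ± 5.41 at 15 months and 8.82 ± 3.63 at 2 months, with single mice between 2.7 and 22.7. In the fit of all probe sets the log2 difference was -0.30 ± 0.20 (95% interval -0.71 to 0.10; adjusted p = 0.660) for the brighter probe set of Mki67 and -0.10 ± 0.12 (95% interval -0.35 to 0.15; adjusted p = 0.866) for Top2a.

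Other dim members belonged to the same processes. Aurka and Aurkb, the Aurora kinases of the spindle and of chromosome attachment, were at 36.3 ± 14.9 in the older and 36.8 ± 19.5 in the younger mice, and at 40.7 ± 35.4 in the older and 37.5 ± 15.6 in the younger mice. Birc5, survivin of the passenger complex, was at 37.3 ± 27.4 in the older and 39.3 ± 21.2 in the younger mice, and Bub1, a kinase of the spindle checkpoint, at 9.40 ± 8.54 in the older and 8.21 ± 5.54 in the younger mice. Rrm1 and Rrm2 encode the subunits of ribonucleotide reductase, which makes the precursors of DNA. Rrm1 was at 61.5 ± 30.3 in the older and 64.4 ± 34.2 in the younger mice, and Rrm2 at 29.0 ± 22.5 in the older and 46.3 ± 17.1 in the younger mice. With all 12422 probe sets in the test none of the 96 members passed, against 0.217% of all. Of the 40 dim ones 2, or 5%, had an unadjusted p under 0.05, against 5.35% of all 4969 probe sets under the level for testing. The 2 were Rrm2 (log2 difference -0.55, adjusted p = 0.433) and Ccnb1ip1, a ubiquitin ligase of meiosis (-0.39, adjusted p = 0.4995). Mcm6 was at 19.0 ± 20.3 in the older and 7.54 ± 7.98 in the younger mice. Cdc6, which helps to load the helicase of which Mcm6 is a subunit, was at 66.2 ± 21.4 in the older and 68.5 ± 18.3 in the younger mice. A further 2 probe sets carried several symbols of which 1 fits the rule. They are left unnamed, were too dim to test, and had mean signals of 64.3 and 22.3 at 15 months and of 69.2 and 24.6 at 2 months.

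**Figure D4:**
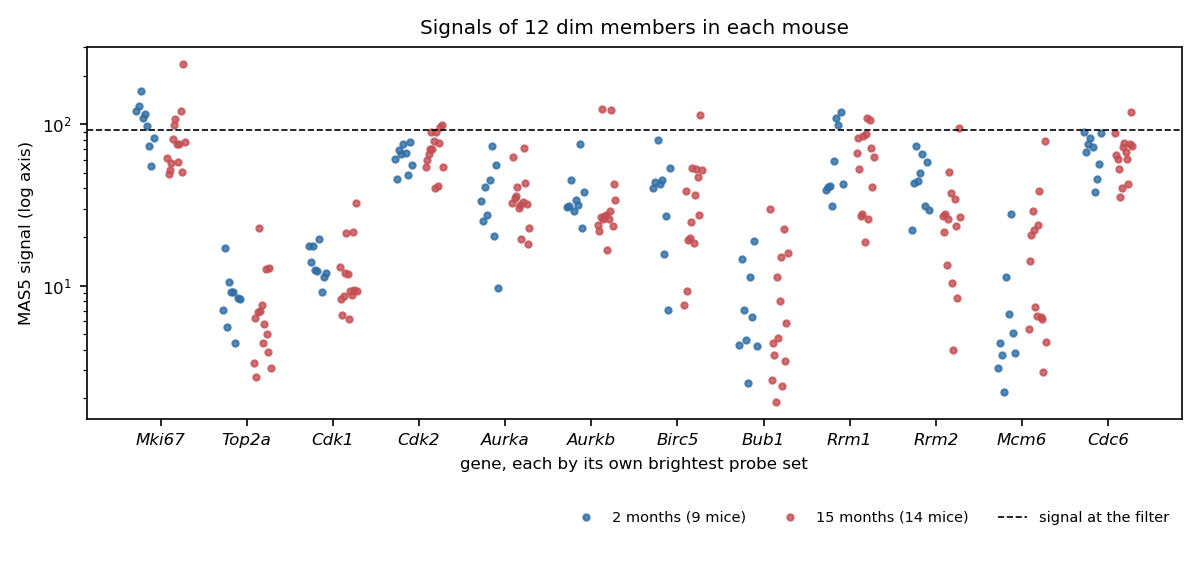
MAS5 signal (log axis) of 12 dim members in each mouse, each by its own brightest probe set, with 9 mice of 2 months and 14 of 15 months; the dashed line is the signal of 91.7 at the filter, which applies to the mean log2 value over all mice. The median of each age lies under the line for every gene shown except Mki67 at 2 months, at 108.8, and the ages overlap in each.

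Names in the set that begin with Cdc or Mcm but belong to other processes had none past the test in 8 probe sets, with a median difference of -0.03. Cdc42, a small GTPase of the actin cytoskeleton and of dendritic spines, was at 1245 ± 134 in the older and 1186 ± 73.4 in the younger mice, a difference of 0.06 ± 0.06 (SE; 95% interval -0.06 to 0.19; adjusted p = 0.704). Cdc42ep4, an effector that binds Cdc42, had signals of 231.7 to 542.4 with a median of 367.2 at 15 months and of 311.6 to 505.7 with a median of 446.1 at 2 months. Most older mice lay between the lowest young mouse, 2-month replicate 3 at 311.6, and the next young mouse, at 424.7. Of the 14 older mice 4 were outside the young range, 15-month replicate 5 above it and the others below. The difference of Cdc42ep4 was -0.26 ± 0.10 (SE, 95% interval -0.47 to -0.05, adjusted p = 0.289). Cdc42se1 and Cdc42se2, small Cdc42-binding proteins, pointed in opposite directions at -0.15 ± 0.08 (adjusted p = 0.419) and 0.08 ± 0.05 (adjusted p = 0.522). Cdc5l, a core protein of the spliceosome, was at -0.03 in its brighter probe set (-0.01 ± 0.09 without 15-month replicate 13) and at -0.34 ± 0.14 (adjusted p = 0.305) in a dimmer one, named after its value was seen. Of 7 member genes with more than 1 tested probe set, 4 had the same sign in both and 3, Ccnd1, Cdk14 and Plk1, did not.

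Other genes of the cell cycle and replication, from a list of 95 that holds no member, also had no gene past the test. Of 78 on the array 50 were bright enough, with a median difference of 0.04, 17 below 0, and 6 higher and 2 lower at an unadjusted p under 0.05. As shares these were 34% below 0 against 55% of all, 12% higher against 5.89% and 4% lower against 6.51%. The lowest adjusted p was that of Anln, anillin of the contractile ring, at 501 ± 109 in the older and 359 ± 93.5 in the younger mice (0.47 ± 0.12, adjusted p = 0.104). It passed without 15-month replicate 10 (adjusted p = 0.0341) and without 2-month replicate 9 (0.0135). Ube2c, the ubiquitin-conjugating enzyme of the anaphase-promoting complex, was at 100.5 ± 41.1 and 168 ± 31.3 (-0.75 ± 0.21, adjusted p = 0.120), in a probe set whose probes can be less specific.

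Of 11 markers of hippocampal neurons on the array 9 were bright enough, and their mean log2 value was 10.72 to 11.07 at 15 months and 10.77 to 11.01 at 2 months. Genes listed as markers of immature neurons had 9 of 9 estimates below 0, where 55% of all probe sets tested were. They ran from Tubb3, at mean signals of 6994 in the older and 7491 in the younger mice, to Dpysl3, at 101 and 118. How far each of these genes is limited to immature neurons was not tested. Their median was -0.20, and no single marker passed the test. The mean of these markers ran from 9.10 to 9.37 against 9.36 to 9.52, a difference of -0.21 (adjusted p = 2.39e-05, exact permutation test). Markers of neural stem and progenitor cells had 3 of 7 above 0 (8.42 to 9.01 against 8.76 to 8.95), and those of oligodendrocyte progenitors 1 of 4 (8.22 to 8.94 against 8.60 to 9.03). Of 11 microglial markers 5 rose, where 0.335% of all probe sets tested did, and all 11 were above 0 (10 with the 25th-percentile covariate). Their mean was 9.39 to 9.69 against 9.08 to 9.36, a difference of 0.31 (adjusted p = 1.59e-05, exact permutation test). The marker lists were chosen with earlier results of these data known, which the p-values of their means do not allow for. Choroid plexus markers ran from 7.00 to 10.79 against 6.44 to 10.65, with 3 of 3 above 0 and none past the test. For the other lists named here the adjusted p of the mean was 0.428 to 0.677 (exact permutation test). The part of these cell types in the members' values was not tested, except that with the choroid plexus mean in the model no member passed either.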

How the data were processed

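Biotin-labelled hippocampal RNA was hybridised to 1-colour arrays with 12488 probe sets, according to the protocols in the labels. The deposited intensities are linear signals, 1 for each probe set, which the authors computed with MAS5 per the submitters' processing notes (its version is not given in the sources used here). After trimming 2% at each end every array had a mean signal of 500.26 to 500.31, so no further normalization was done. The number of arrays limits the precision. Age labels gave the groups, and replicate numbers in accession order only name mice. The series' design text calls the samples biological replicates.

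Control probe sets (66) were left out. Gene names came from the platform annotation, with 1 symbol for 10833 probe sets, several for 396 and none for 1193. All 96 member probe sets matched RefSeq (GRCm38.p6) by Entrez identifier. Probe sets with a mean log2(signal + 16) above the 40th percentile were fitted together with limma 3.58.1 in R 4.3.3 (intensity trend and robust variance; two-sided), adjusting by Benjamini-Hochberg over all 7453 at a false discovery rate of 0.05. The test was tested on simulated data. Correlations used 100000 permutations (numpy 2.4.6, Python 3.11.15).

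Named genes are the 8 members of lowest p in each direction and a fixed list of well-known members, each by its brightest probe set; Ccnb1 and Ccnh of that list and any gene without a probe set of its own are not analysed here, and other names were added after their values were seen. Members and lists were chosen with earlier results of these data known. Alternatives changed the pseudocount, filter, normalization, test, variance model, covariates, probe sets and arrays.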

Additional observations from a re-analysis of the deposited data

Results flagged for a closer look

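Among 27 named members tested, 2 had a 2-month mouse far from the other 8, out of 54 extremes examined. These extremes were the lowest and highest of the 9 mice of 2 months for each member. They were compared as linear signals, not on the log2 scale of the differences. Plk1, at 110.7 in 2-month replicate 7 and 319.1 in the next mouse, was not flagged on this scale. Members outside the 27, such as Cdk16 (902.9 in 2-month replicate 1 and 1321.8 in the next), were not screened. Chance alone sets a value apart in about 1 of 20 groups of mice, counted per member and not per extreme. The 15-month mice were not screened in this way. For example, Ccnb2 was at 466.7 in 15-month replicate 13 and at 355.8 in the next highest mouse of that age. For Cdc42ep4 the lowest signal was 311.6, in 2-month replicate 3, while the next was 424.7 and the highest 505.7. For Mcm2 the lowest was 29.5, in the same mouse, against 124.5 for the next and 210.8 for the highest. Without this mouse the log2 difference was -0.31 ± 0.10 for Cdc42ep4 (adjusted p = 0.233) and -0.10 ± 0.16 for Mcm2 (adjusted p = 0.857).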

How the results depend on the processing

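No paired analysis was possible because replicate numbers only name the mice. No member passed the test in any of 34 alternatives, of which 23 left out 1 mouse each, and the lowest adjusted p of any named member was 0.0782 (Ccng2, with the 25th-percentile covariate). Leaving out 1 mouse moved the members lower at an unadjusted p under 0.05 between 5 and 10 and those higher between 1 and 2; the median log2 difference stayed between -0.07 and -0.04. The lower count was 4 with the 60th-percentile filter (36 members tested), and the higher count 2 with the choroid plexus covariate and when the 4 arrays with the lowest 99th percentile were dropped. Of the other cell cycle and replication genes 0 or 1 passed when 1 mouse was left out, and 1 with the 25th-percentile covariate, Tfdp1. Of 27 named members 8 changed sign in some setting, none of them past the threshold. With quantile normalization Ccnb2 was at 0.00948 and Cdk5 at -0.00811. With the 25th-percentile covariate Ccnb2 was at 0.0232, Ccne1 at -0.0387 and Tk1 at -0.0123. Without the 4 arrays Plk1 was at -0.11 and Cdk5 at -0.00163, and with the mean of probe sets Ccnd1 was at -0.0303. When 1 mouse was left out Ccnb2 ran from -0.0686 to 0.00651, Ccne1 from -0.0417 to 0.088, Ccng1 from -0.0124 to 0.0674, Cdk5 from -0.0171 to 0.0364, Mcm2 from -0.101 to 0.215, Plk1 from -0.0438 to 0.222 and Tk1 from -0.0593 to 0.237. The cause was not tested. Of the 96 members 40 were too dim to be tested.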
